A study of Mus musculus with 22 samples.

Results

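Lung epithelial cells (ECs) of WT mice and of mice labelled AhR-/- were compared at steady state, that is, without allergen. The 7 libraries concerned, 4 of WT and 3 labelled AhR-/-, are those that the labels name naive with these genotypes, out of 22 libraries in the series. All protein-coding genes were included: of 54373 genes listed, 21793 were protein-coding, and 15547 of these passed the filter on low counts and were tested. The comparison asks which transcripts of resting lung epithelium differ in mice labelled as lacking the aryl hydrocarbon receptor (AhR).

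AhR, the aryl hydrocarbon receptor, belongs to the bHLH-PAS family of transcription factors. Without ligand it is held in the cytoplasm by HSP90 and co-chaperones, and with ligand it enters the nucleus, pairs with ARNT and binds elements with the core GCGTG in genes of xenobiotic metabolism such as Cyp1a1. The circadian clock is built from relatives of AhR: BMAL1 (encoded by Arntl) pairs with CLOCK or NPAS2 at E-boxes and drives the Per and Cry genes, whose products inhibit the pair, while REV-ERBs (Nr1d1, Nr1d2) and RORs repress and activate Arntl. Levels of these transcripts change over the day in most tissues, lung epithelium included.

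WT mice were C57BL/6. The AhR-/- and CYP1B1-/- mice, which the study describes as knockouts and not as conditional knockouts, had been backcrossed to C57BL/6. The study used mice of both sexes, older than 7 weeks and matched for age and sex, and the sex, the exact age and the time of day at collection of each steady-state animal are not given in the sources used here. Cells had been released from the lung with enzymes and low-melt agarose and sorted as live CD45- EpCAM+ singlets (CD31- as well, in the description of the study), and cDNA was primed with oligo-dT and tagmented. Whether each library came from 1 animal is also not given, so p-values measure the spread between these libraries, which may in part be technical. The 3 steady-state libraries labelled CYP1B1-/- entered the same fit, where they add to the estimate of the spread. Values are CPM, the counts scaled to a common library size with TMM normalization. Library values are given below in the order of replicates 1, 2, 3 and 4 for WT and replicates 1, 3 and 4 for the libraries labelled AhR-/-. Differences are log2 fold changes, labelled AhR-/- minus WT, with standard errors (SE).

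Total counts ranged from 10476829 to 17707000 in WT and from 11185853 to 13301855 in the libraries labelled AhR-/-, so that 3 counts corresponded to 0.181 to 0.295 CPM. The predicted gene Gm10800 took 9.91% to 22.4% of their protein-coding counts. Of all 10 steady-state libraries, 1 stood apart: CYP1B1-/- replicate 2 had a median correlation of 0.921 with the other libraries, against at least 0.964 for every other library. WT replicate 1 stood out by leukocyte transcripts, with Ptprc at 79.8 CPM against 2.65 to 21.3 CPM in the other WT libraries. All 10 libraries carried reads of the Y-linked gene Ddx3y. The libraries labelled CYP1B1-/- also went against their label by gene counts: Cyp1b1 was at 5.12, 7.60 and 8.05 CPM there against 0.843 to 2.81 CPM in WT. The deposited counts are 1 number per gene over its exons, so they do not show whether the transcript was complete.

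At steady state, 0 of 15547 genes (0%) reached a Benjamini-Hochberg adjusted p of at most 0.05 in the quasi-likelihood test of edgeR. An unadjusted p under 0.05 was found for 261 genes (1.68%), 85 of them higher (0.547%) and 176 lower (1.13%). The libraries of the groups did not overlap for 689 genes (4.43%), 395 higher (2.54%) and 294 lower (1.89%). For 306 genes (1.97%) the groups differed by at least 1 on the log2 scale. Across all genes tested, the median log2 fold change was -0.00 and the median absolute log2 fold change was 0.14. The count of 0 changed with the test and with the libraries in the fit. Without CYP1B1-/- replicate 2, 7 of 15831 genes passed (0.0442%): Acp1, Arntl, Cry1 and Glipr2 were lower in the libraries labelled AhR-/-, and Rab4a, Pik3ip1 and Fcgrt were higher. With the 7 WT and AhR-/- libraries alone, 4 of 15027 genes passed (0.0266%), all lower, with Acp1, Cry1 and Arntl among them. The likelihood ratio test of edgeR called 11 genes (0.0708%), DESeq2 called 13 of the 9818 genes it gave an adjusted p (0.132%) and limma voom with sample weights called 11.

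**Figure D1:**
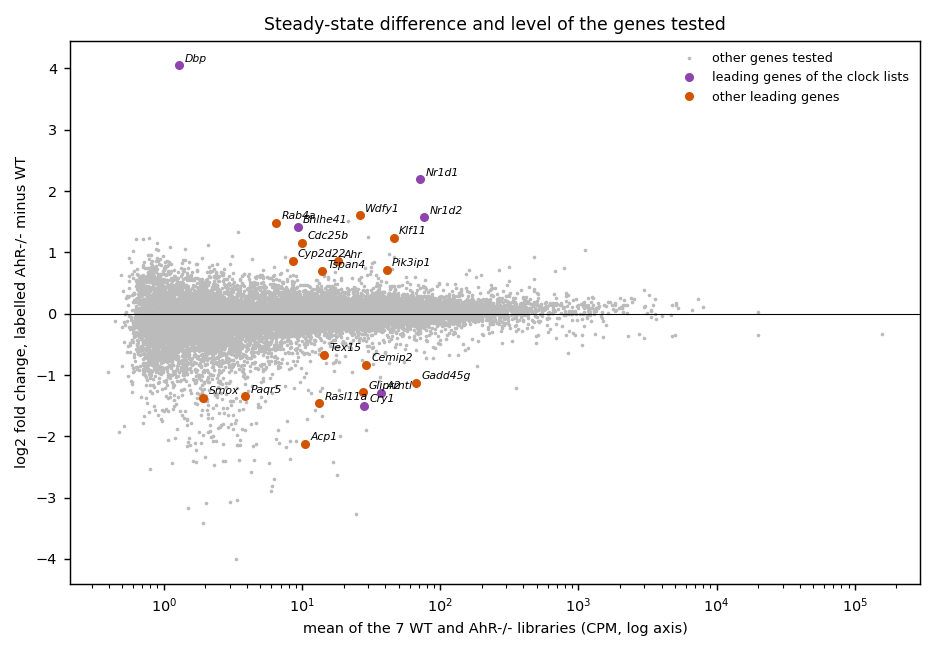
Each point is 1 of 15544 genes tested, with the mean of the 7 WT and AhR-/- libraries (CPM, log axis) against the log2 fold change, labelled AhR-/- minus WT. Of the 24 leading genes, the 12 of lowest unadjusted p in each direction, 22 are shown in colour, and the 6 of these that belong to the clock lists run from Dbp at 4.05 to Cry1 at -1.50.

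The targeted gene was read first. Ahr (ENSMUSG00000019256, chromosome 12, 35497974 to 35535038 on the minus strand, GRCm38) was counted at 9.69, 12.1, 16.6 and 16.1 CPM in WT and 24.7, 21.9 and 27.4 CPM in the libraries labelled AhR-/-. Each library labelled AhR-/- had a higher Ahr CPM than each WT library, against its label, with a log2 fold change of 0.85 (SE 0.21, adjusted p = 1 from edgeR). The deposited tables hold 1 number per gene over its exons, so reads from a transcript without some exons and reads from a complete transcript cannot be told apart. A share of 2.06% of the Ahr exon length is shared with Gm48236 on the other strand, and the counting strand is not given in the sources used here. Partners of the receptor lay close to WT. Arnt, its nuclear partner, was at 67.4 to 94.4 CPM in WT and at 78.4 to 90.1 CPM in the libraries labelled AhR-/-. The cytoplasmic chaperone gene Hsp90ab1 was at 781 to 1474 and 1169.8 to 1254 CPM, and the co-chaperone gene Ptges3 had a log2 fold change of -0.01. Of 8 genes of the AhR complex, 7 were tested, and Ahr was the only one with an unadjusted p under 0.05, against 1.68% of all genes tested.

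Of 12 classical AhR target genes, 6 had enough counts to be tested and 0 had an unadjusted p under 0.05, against 1.68% of all genes tested. Cyp1a1, the best known of them, was close to the counting floor, at 0.906, 0.363, 0.295 and 0.301 CPM in WT and 0.432, 0.569 and 0.336 CPM in the libraries labelled AhR-/-, and was not tested. Ahrr, the repressor that AhR induces against itself, was at 0.453, 0.635, 0.788 and 0.301 CPM in WT and 0.604, 0.569 and 0.503 CPM in the libraries labelled AhR-/-. Both genes overlapped between the groups, and any difference was not detectable at this depth. Cyp1a2, Gsta1, Ugt1a6a and Ugt1a6b also failed the filter. Tiparp, an AhR-induced ADP-ribosyltransferase that in turn restrains AhR, was at 104, 172, 138 and 227 CPM in WT and 225, 190.3 and 327 CPM in the libraries labelled AhR-/-. Its groups overlapped only through WT replicate 4, and its log2 fold change was 0.63 (SE 0.36). Cyp2s1, a cytochrome P450, was at 18.0, 15.4, 23.1 and 60.04 CPM in WT and 15.6, 16.9 and 13.1 CPM in the libraries labelled AhR-/-, a log2 fold change of -0.95 (SE 0.48) in which WT replicate 4 alone lay above 23.1 CPM. Nqo1, a quinone reductase shared with NRF2, Aldh3a1, an aldehyde dehydrogenase, Xdh, xanthine dehydrogenase, and Cyp1b1 had log2 fold changes of 0.22, -0.58, -0.30 and -0.13 with overlapping libraries. The median of the 6 genes was -0.22, and it ran from -0.35 to 0.15 over the alternative settings. Nnt, which carries a deletion in the C57BL/6J substrain, had at most 0.635 CPM in any steady-state library.

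The transcripts of the circadian clock held many of the lowest p-values. Of 21 genes in the lists of clock activators, repressors and outputs, all 21 were tested, 8 were higher and 5 lower at an unadjusted p under 0.05 (61.9% of the genes, against 1.68% of all genes tested), and 0 passed the adjusted threshold. The groups did not overlap for 7 higher and 5 lower clock genes. The median absolute log2 fold change was 0.92 over the clock genes and 0.14 over all genes tested, and 10 of the 21 differed by at least 1 on the log2 scale. These lists were written with earlier results of these data known, so the counts describe these libraries. The time of day at collection is not given, so differences by genotype and by time of collection cannot be told apart for these genes.

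Stretches upstream of the start are shown for the clock genes with an unadjusted p under 0.05 that carry a clock motif there, since these genes lay apart together. Sequences are RefSeq promoters on GRCm38.p6, 17 of the 21 clock genes had one, and the 250 bases before each start were searched on both strands. Capitals mark the E-box CACGTG, its variant CACGTT, which reads AACGTG on the other strand, the D-box TTANGTAA and the ROR element TAGGTCA, which reads TGACCTA on the other strand. Each runs 5′ to 3′ on the strand of the gene.
Ciart, chr3:95882229-95882384, minus strand: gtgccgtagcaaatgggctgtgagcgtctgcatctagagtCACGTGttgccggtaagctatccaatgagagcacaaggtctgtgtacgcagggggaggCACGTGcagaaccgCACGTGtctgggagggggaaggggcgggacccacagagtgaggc
Bhlhe41, chr6:145865528-145865613, minus strand: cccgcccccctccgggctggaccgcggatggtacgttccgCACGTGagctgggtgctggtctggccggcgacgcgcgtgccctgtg
Per1, chr11:69098743-69098828, plus strand: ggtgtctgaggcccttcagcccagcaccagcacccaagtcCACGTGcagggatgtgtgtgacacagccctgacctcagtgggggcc
Cry1, chr10:85185069-85185173, minus strand: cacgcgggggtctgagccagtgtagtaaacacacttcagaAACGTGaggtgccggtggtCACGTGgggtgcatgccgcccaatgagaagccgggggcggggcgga
Nr1d1, chr11:98775378-98775445, minus strand: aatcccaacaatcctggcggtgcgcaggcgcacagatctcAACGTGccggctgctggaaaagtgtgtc
Per3, chr4:151044776-151044910, minus strand: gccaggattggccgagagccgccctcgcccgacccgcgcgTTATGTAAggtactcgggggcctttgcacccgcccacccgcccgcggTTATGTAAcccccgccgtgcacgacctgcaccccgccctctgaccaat
Nfil3, chr13:52981040-52981091, minus strand: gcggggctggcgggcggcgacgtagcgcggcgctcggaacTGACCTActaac
Ciart held E-boxes starting 116, 58 and 44 bases before its start, Cry1 held 1 E-box and 1 variant, Per3 held D-boxes 205 and 158 bases before its start, and Nfil3 held its ROR element 12 bases before. An E-box was present for 5 of the 17 clock genes with a promoter, these 4 E-box genes (Ciart, Bhlhe41, Per1 and Cry1) and Tef. The E-box was present in 6.02% of all 32851 promoters and 7.48% of the 15344 promoters of genes tested. A gene with several promoters counted if any held the motif, whereas the shares here and below count single promoters. The variant, the D-box and the ROR element were present in 3, 1 and 1 of the 17, against 3.85%, 2.06% and 2.23% of all promoters. The AhR core GCGTG was present in 15 of the 17, against 28.2% of all promoters and 40.1% of those of genes tested, and none of its matches overlapped a match of the other motifs in these promoters. A match to such short letters is a description of the sequence and not a binding site. No motif of the 4 clock types lay in the windows of Arntl, Npas2, Clock, Rora, Nr1d2, Dbp, Hlf or Usp2.

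In the activating arm, Arntl and Npas2 lay lower. Arntl (ENSMUSG00000055116, chromosome 7, 113207465 to 113314126 on the plus strand) was at 55.4, 46.2, 52.0 and 46.4 CPM in WT and 18.3, 25.4 and 17.4 CPM in the libraries labelled AhR-/-. The groups were far apart, with the highest library labelled AhR-/- at 25.4 CPM and the lowest WT library at 46.2 CPM, and the log2 fold change was -1.29 (SE 0.22, adjusted p = 0.46 from edgeR). Without CYP1B1-/- replicate 2 the adjusted p was 0.0123. Npas2, a relative of Clock that pairs with BMAL1, was counted at 3.35, 3.45, 3.84 and 2.47 CPM in WT and 1.38, 1.71 and 1.43 CPM in the libraries labelled AhR-/-, again with no overlap. Clock itself and Rora did not separate: Clock was at 66.4, 62.4, 59.0 and 46.9 CPM in WT and 43.9, 42.3 and 69.5 CPM in the libraries labelled AhR-/-, and Rora at 61.3 to 65.1 and 65.1 to 71.0 CPM.

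The REV-ERB genes, which encode the nuclear receptors that repress Arntl, lay higher. Nr1d1 (ENSMUSG00000020889, chromosome 11, 98767932 to 98775333 on the minus strand) was at 15.5, 14.4, 33.6 and 49.7 CPM in WT and 106, 106 and 178 CPM in the libraries labelled AhR-/-. All 3 libraries labelled AhR-/- lay above 100 CPM and all WT libraries below 50 CPM, although the WT libraries themselves ranged from 14.4 to 49.7 CPM. Its log2 fold change was 2.19 (SE 0.45, adjusted p = 0.537 from the quasi-likelihood test of edgeR, 0.953 without CYP1B1-/- replicate 2). Nr1d1 passed in 3 of 22 alternative settings, and Nr1d2 passed in the same 3. For Nr1d1 these were the likelihood ratio test of edgeR (adjusted p = 0.00327), DESeq2 (0.00218) and limma voom with sample weights (0.0214). Of the Nr1d1 exon length, 8.55% overlaps Thra on the other strand. Nr1d2 was at 30.3, 33.5, 43.2 and 58.2 CPM in WT and 127, 89.4 and 153 CPM in the libraries labelled AhR-/-, a log2 fold change of 1.57 (SE 0.32) with separate groups.

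Repressors of the CLOCK-BMAL1 pair lay on both sides of WT. Bhlhe41, which encodes the E-box repressor DEC2, was at 7.52, 4.72, 5.22 and 4.22 CPM in WT and 13.2, 10.98 and 19.1 CPM in the libraries labelled AhR-/-. It had the lowest p of all genes that lay higher (log2 fold change 1.42, SE 0.26, adjusted p = 0.46 from the quasi-likelihood test of edgeR, 0.094 without CYP1B1-/- replicate 2), with every library labelled AhR-/- above every WT library. Bhlhe41 passed in 2 of 22 alternative settings, the likelihood ratio test of edgeR (adjusted p = 0.00327) and DESeq2 (0.00218). Exons of other genes on the other strand overlap 19.0% of its exon length. Its relative Bhlhe40 (DEC1) was at 17.9, 9.08, 9.75 and 8.07 CPM in WT and 18.6, 8.46 and 8.47 CPM in the libraries labelled AhR-/-, with overlap and a log2 fold change of 0.08. Ciart, whose promoter carries 3 E-boxes, was at 0.453, 0.635, 0.689 and 0.241 CPM in WT and 1.12, 0.813 and 1.51 CPM in the libraries labelled AhR-/-, separate between the groups at a low level.

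Among the period genes, Per2 was at 20.4, 28.6, 10.0 and 16.4 CPM in WT and 48.2, 28.9 and 57.4 CPM in the libraries labelled AhR-/-, so that AhR-/- replicate 3 lay only just above WT replicate 2. Per3 was at 21.5, 22.1, 22.5 and 22.8 CPM in WT and 45.8, 28.6 and 37.0 CPM in the libraries labelled AhR-/-. The WT libraries of Per3 lay close together, and all 3 libraries labelled AhR-/- lay above them, with a log2 fold change of 0.74 (SE 0.27). Per1 was at 2.54, 10.5, 3.35 and 5.42 CPM in WT and 13.1, 6.67 and 11.2 CPM in the libraries labelled AhR-/-, where WT replicate 2 lay among the libraries labelled AhR-/-.

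Cryptochromes encode the partners of the PER proteins. Cry1 (ENSMUSG00000020038, chromosome 10, 85131700 to 85185064 on the minus strand) was at 48.1, 39.1, 33.6 and 35.3 CPM in WT and 12.9, 13.3 and 15.0 CPM in the libraries labelled AhR-/-. The 3 libraries labelled AhR-/- lay close together and below all WT libraries, a log2 fold change of -1.50 (SE 0.29, adjusted p = 0.515 from edgeR, 0.0101 without CYP1B1-/- replicate 2). Cry2 was at 117, 118, 118 and 147 CPM in WT and 159.6, 137 and 199 CPM in the libraries labelled AhR-/-, with overlapping groups. Nfil3, which encodes a repressor at D-boxes, was at 8.33, 6.63, 4.23 and 7.29 CPM in WT and 2.503, 1.79 and 1.51 CPM in the libraries labelled AhR-/-, with the groups separate and a log2 fold change of -1.78 (SE 0.52). Over the 11 repressors the median was 0.92, and it ran from 0.71 to 1.36 over the alternative settings.

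Of the clock outputs, Dbp encodes an activator at D-boxes and is among the most strongly cycling transcripts of many tissues. It was at 0, 0.0908, 0.0984 and 0.361 CPM in WT and 6.73, 1.46 and 0.336 CPM in the libraries labelled AhR-/-. The WT libraries held 0, 1, 1 and 6 reads, AhR-/- replicate 1 held 78 reads, and AhR-/- replicate 4 lay just below the highest WT library. The fitted log2 fold change of 4.05 (SE 1.10), which at such counts depends on the fit, was 2.42 without AhR-/- replicate 1, and Sphk2 on the other strand covers 18.0% of the Dbp exon length. Tef, a relative of Dbp, was at 176, 185, 226 and 237 CPM in WT and 249, 249.6 and 324 CPM in the libraries labelled AhR-/-, with no overlap and a log2 fold change of 0.41 (SE 0.20). Wee1, a kinase that delays mitosis, Hlf, a further D-box activator, and Usp2, a deubiquitinase, overlapped between the groups, at 0.35, -0.33 and -0.22. The 6 kinase and ubiquitin ligase genes that act on PER and CRY proteins had 0 members at an unadjusted p under 0.05, against 1.68% of all genes, and a median of 0.11.

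**Figure D2:**
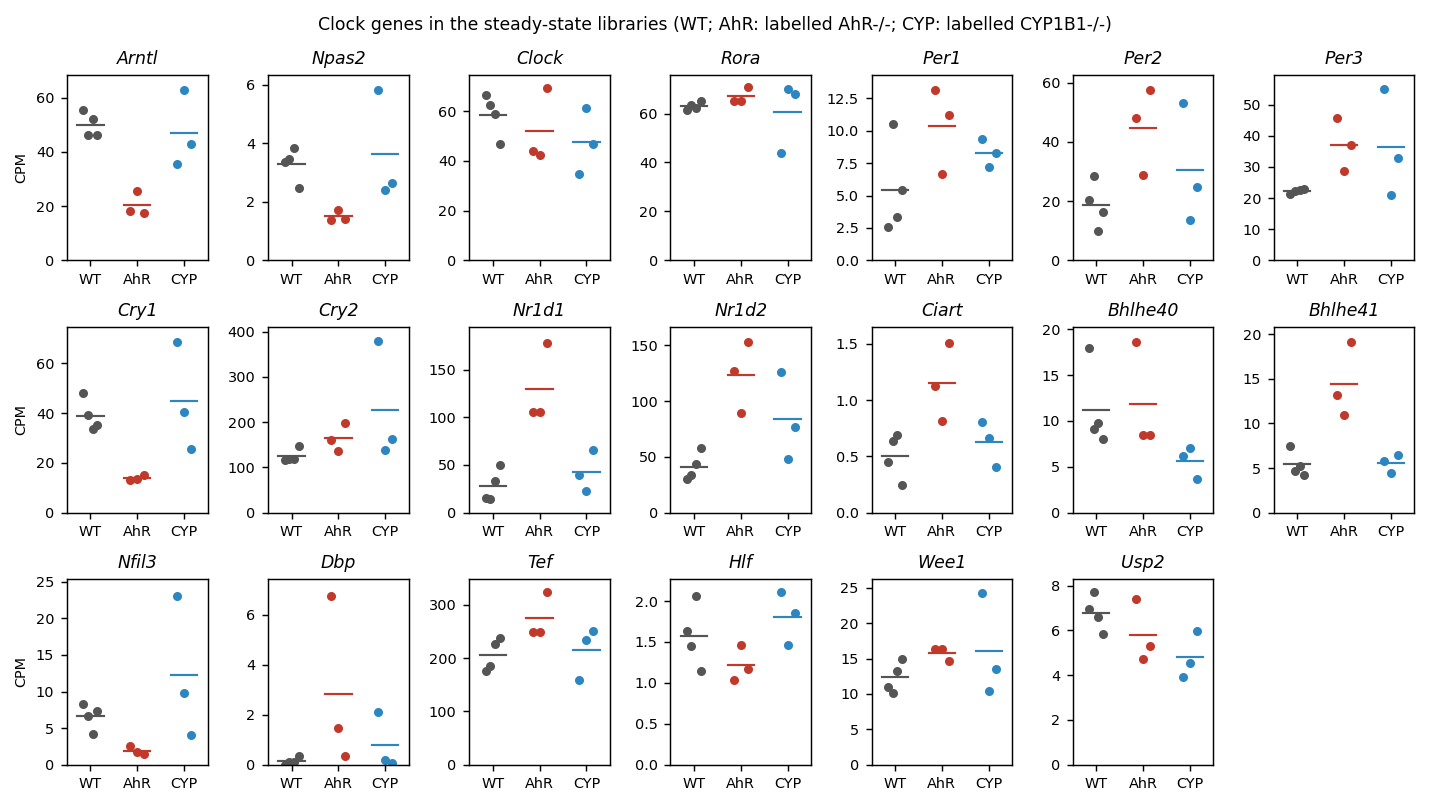
The CPM of 20 clock genes is shown for each steady-state library (points) with the group mean (line), for 4 WT libraries, 3 labelled AhR-/- and 3 labelled CYP1B1-/-. Arntl, Npas2, Cry1 and Nfil3 lie lower in all libraries labelled AhR-/- than in all WT libraries, and Nr1d1, Nr1d2, Per2, Per3, Ciart, Bhlhe41 and Tef lie higher.

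The libraries labelled CYP1B1-/- share their WT controls with this comparison, so their values are set beside it without a test of likeness. Bhlhe41 was at 5.82, 4.47 and 6.44 CPM in CYP1B1-/- replicates 2, 3 and 4 and Nr1d1 at 39.3, 22.4 and 65.7 CPM. Arntl was at 35.6, 63.0 and 42.7 CPM and Cry1 at 68.4, 40.5 and 25.5 CPM in the same order. Replicate 2, the library that stands apart, was the highest of the 10 libraries for Cry1 and the lowest of the 3 for Arntl. The log2 fold changes of labelled CYP1B1-/- minus WT were 0.04 for Bhlhe41, 0.58 for Nr1d1, 1.01 for Nr1d2, -0.08 for Arntl and 0.20 for Cry1.

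Outside the clock lists, Acp1, which encodes the low molecular weight protein tyrosine phosphatase, had the lowest p of all genes. It was at 16.1, 13.8, 15.9 and 17.2 CPM in WT and 2.68, 3.09 and 5.12 CPM in the libraries labelled AhR-/-, in reads 178, 152, 162 and 286 against 31, 38 and 61. The groups were far apart, and its adjusted p of 0.0764 (edgeR) stayed above the threshold but was 0.00145 without CYP1B1-/- replicate 2. The leave-one-out values of its log2 fold change ran from -2.45 to -1.94. Alkal2 on the other strand covers 14.6% of the Acp1 exon length, and 26.1% of its stretches of 50 bases recur in transcripts of other genes, so its level is uncertain.

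Small GTPase and membrane genes followed. Rab4a, a GTPase of endosomal recycling, was at 3.53, 2.72, 3.64 and 4.64 CPM in WT and 13.5, 8.94 and 8.39 CPM in the libraries labelled AhR-/-. The groups did not overlap, and the libraries labelled CYP1B1-/- were at 27.9, 16.0 and 16.7 CPM. Rasl11a, a Ras-like GTPase, was at 14.4, 17.1, 19.1 and 23.1 CPM in WT and 9.06, 7.24 and 3.77 CPM in the libraries labelled AhR-/-, separate, with a log2 fold change of -1.46 (SE 0.27). Glipr2, a Golgi-associated protein, was at 36.7, 35.7, 28.2 and 47.3 CPM in WT and 18.1, 15.9 and 11.6 CPM in the libraries labelled AhR-/-. Both groups were again separate, and its adjusted p was 0.537 (edgeR), or 0.0236 without CYP1B1-/- replicate 2. Pik3ip1, an inhibitor of PI3 kinase, was at 31.2, 30.1, 31.2 and 36.2 CPM in WT and 53.2, 53.1 and 52.0 CPM in the libraries labelled AhR-/-. The libraries labelled AhR-/- lay close together and above all WT libraries.

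Wdfy1, a phosphoinositide-binding adaptor, differed among the libraries labelled AhR-/- themselves, at 12.6, 16.4, 12.5 and 14.5 CPM in WT and 15.3, 51.1 and 61.7 CPM in the libraries labelled AhR-/-. Replicate 1 lay within the WT range and replicates 3 and 4 lay far above it, and without replicate 1 Wdfy1 was the 1 gene that passed. Klf11, a Krüppel-like transcription factor, was at 20.4, 26.0, 28.4 and 41.4 CPM in WT and 76.2, 40.6 and 89.8 CPM in the libraries labelled AhR-/-, with replicate 3 just below WT replicate 4. Cdc25b, a phosphatase that starts mitosis, was at 6.88, 4.81, 8.17 and 6.38 CPM in WT and 18.6, 13.4 and 11.8 CPM in the libraries labelled AhR-/-, separate. Cyp2d22, a cytochrome P450, and Tspan4, a tetraspanin, were also higher in every library labelled AhR-/-, at 0.87 and 0.69.

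Of the remaining leading genes that lay lower, Cemip2, a cell-surface hyaluronidase, was at 35.3, 40.8, 28.8 and 38.0 CPM in WT and 19.5, 17.2 and 23.5 CPM in the libraries labelled AhR-/-, and Tex15, a germ cell gene, at 15.2 to 20.3 and 9.58 to 11.6 CPM, both separate. Smox, spermine oxidase, and Paqr5, a membrane progestin receptor, were separate at low levels, with log2 fold changes of -1.37 and -1.35. Gadd45g, a stress-response gene, was at 108, 50.7, 103 and 86.8 CPM in WT and 36.8, 52.8 and 29.8 CPM in the libraries labelled AhR-/-, where WT replicate 2 lay below AhR-/- replicate 3. In all, 20 of the 24 leading genes had separate groups, a count that their choice by p favours.

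Acp1 lies on chromosome 12, 4.60 Mb from Ahr by gene starts. The genes around the targeted locus were therefore read together. Of 72 protein-coding genes within 10 Mb of Ahr, 62 were tested, 1 was higher (Ahr itself) and 2 were lower (Acp1 and Cmpk2, a mitochondrial nucleotide kinase) at an unadjusted p under 0.05, against 1.68% of all genes. Groups were separate for 4 higher genes, Ahr, Snx13, Cbll1 and Tmem18, and 2 lower genes, Acp1 and Agr3, against 4.43% of all genes, in a window that was read because Acp1 lies in it. Snx13, a sorting nexin next to Ahr, had a log2 fold change of 0.34 (SE 0.17). The median over the 62 genes was -0.07, against -0.00 over all genes tested.

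**Figure D3:**
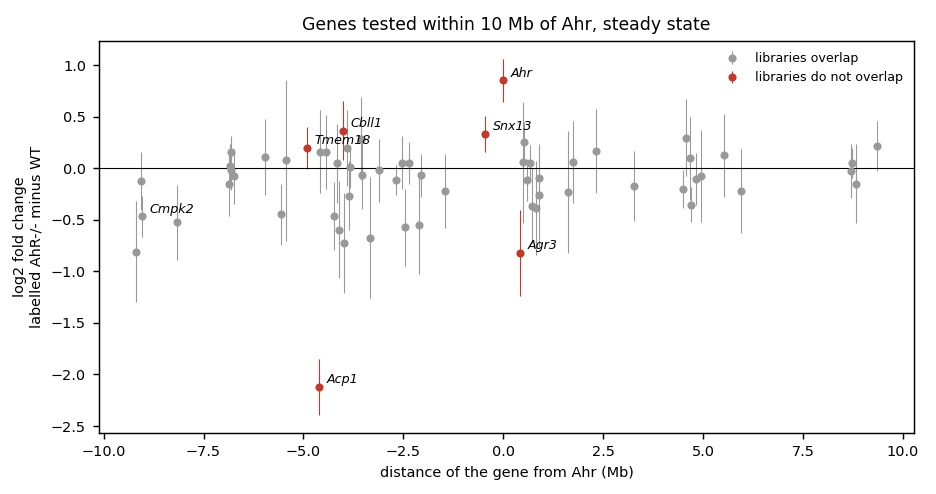
The log2 fold change, labelled AhR-/- minus WT, of the 62 genes tested within 10 Mb of Ahr is plotted against the distance of the gene start from that of Ahr (Mb), with bars for the SE. Acp1 at -2.12 lies below every other gene of the window, and Ahr at 0.85 lies above.

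Gene groups of epithelial function were then read one by one. For cell contacts, 30 tight junction genes were tested with 0 higher and 2 lower at an unadjusted p under 0.05, against 0.547% and 1.13% of all genes tested, and a median of 0.03. The same shares of all genes, 1.68% in both directions together, are the background for each list that follows. Cldn23, an epithelial claudin, was at 32.8, 38.8, 33.0 and 41.7 CPM in WT and 25.9, 25.0 and 28.1 CPM in the libraries labelled AhR-/-, with separate groups and a log2 fold change of -0.48 (SE 0.16). The other, Cldn5, is the endothelial claudin and overlapped. Of 17 adherens junction and desmosome genes, 1 was lower at an unadjusted p under 0.05, the desmosome gene Perp, at 78.5, 82.8, 87.5 and 112 CPM in WT and 65.2, 64.7 and 68.5 CPM in the libraries labelled AhR-/-, with separate groups. Of 7 gap junction genes and 32 genes of TGF-beta signalling tested, 0 had an unadjusted p under 0.05 in either direction, and the medians were -0.16 and -0.01.

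Innate and cytokine genes were divided. In pattern recognition, 20 genes were tested with 0 at an unadjusted p under 0.05, and in JAK-STAT signalling 34 with 0. Il4ra, the receptor chain for IL-4 and IL-13, was at 48.7 to 57.6 CPM in WT and 40.6 to 49.8 CPM in the libraries labelled AhR-/-. Of 12 alarmin and epithelial cytokine genes, 3 were lower at an unadjusted p under 0.05, against 1.13% of all genes, and the median of -0.69 was -0.34 without WT replicate 1 and -1.06 without AhR-/- replicate 1. They were Csf1, the macrophage growth factor, at 11.4, 11.1, 10.5 and 12.0 CPM in WT and 8.98, 8.78 and 7.13 CPM in the libraries labelled AhR-/-, and Il1b and S100a9, which overlapped and peaked in WT replicate 1. Of 14 chemokine genes, 2 were lower at an unadjusted p under 0.05. Cxcl10, a ligand of CXCR3, was separate at 1.27, 1.82, 1.18 and 0.602 CPM in WT and 0.518, 0.407 and 0.252 CPM in the libraries labelled AhR-/-, near the counting floor. Ccl5, a T cell attractant, overlapped. Of 26 interferon response genes, 2 were lower at an unadjusted p under 0.05. Gbp2, a guanylate-binding protein, was separate at 11.3, 3.90, 3.84 and 1.93 CPM in WT and 1.55, 1.87 and 1.85 CPM in the libraries labelled AhR-/-, and Cmpk2 overlapped.

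Of 15 NRF2 target genes, 1 was higher at an unadjusted p under 0.05, the heme oxygenase gene Hmox1 at 6.43, 6.44, 5.61 and 6.38 CPM in WT and 8.80, 10.9 and 6.63 CPM in the libraries labelled AhR-/-. Of 8 glucocorticoid target genes, 2 were higher, against 0.547% of all genes: Tsc22d3 (GILZ) at 272, 466, 257 and 392.4 CPM in WT and 510.3, 418 and 1039 CPM in the libraries labelled AhR-/-, and Klf9, a Krüppel-like factor that also cycles with the clock, at 46.1, 58.6, 50.4 and 59.98 CPM in WT and 107, 64.7 and 73.0 CPM in the libraries labelled AhR-/-. Tsc22d3 overlapped and Klf9 did not, and the median of this list went from 0.31 to -0.13 without AhR-/- replicate 1. Of 21 immediate early and dissociation genes, the heat shock gene Hspa1a was at 6.52, 4.18, 1.67 and 2.35 CPM in WT and 14.7, 5.37 and 10.7 CPM in the libraries labelled AhR-/- and its co-chaperone Dnajb1 at 71.4, 71.0, 51.9 and 65.6 CPM in WT and 103, 76.1 and 105 CPM in the libraries labelled AhR-/-. Hspa1a overlapped between the groups and Dnajb1 did not. Hspa1a shares 66.3% of its 50-base stretches with transcripts of other genes, so its level is uncertain.

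Sterol and fatty acid synthesis held 25 genes tested, of which 3 were lower at an unadjusted p under 0.05, against 1.13% of all genes, and 5 were separate and lower, against 1.89%. Scd1, the stearoyl-CoA desaturase, was at 840.0, 442, 365 and 227 CPM in WT and 339.6, 153 and 111 CPM in the libraries labelled AhR-/-, and Sqle, squalene epoxidase, at 23.3, 14.1, 20.6 and 26.4 CPM in WT and 16.5, 14.2 and 12.9 CPM in the libraries labelled AhR-/-. Both overlapped between the groups. The median of the list was -0.11. Of 22 xenobiotic enzymes, among them the glutathione transferase gene Gsta3 with a log2 fold change of 0.50, 21 genes of the unfolded protein response, 7 of the kynurenine pathway and 9 apoptosis and p53 targets, 0 had an unadjusted p under 0.05. Of 26 genes of DNA replication and mitosis, 1 did, Ccna2 (cyclin A2), at 1.75 to 2.26 CPM in WT and 1.01 to 1.22 CPM in the libraries labelled AhR-/-, with separate groups.

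**Figure D4:**
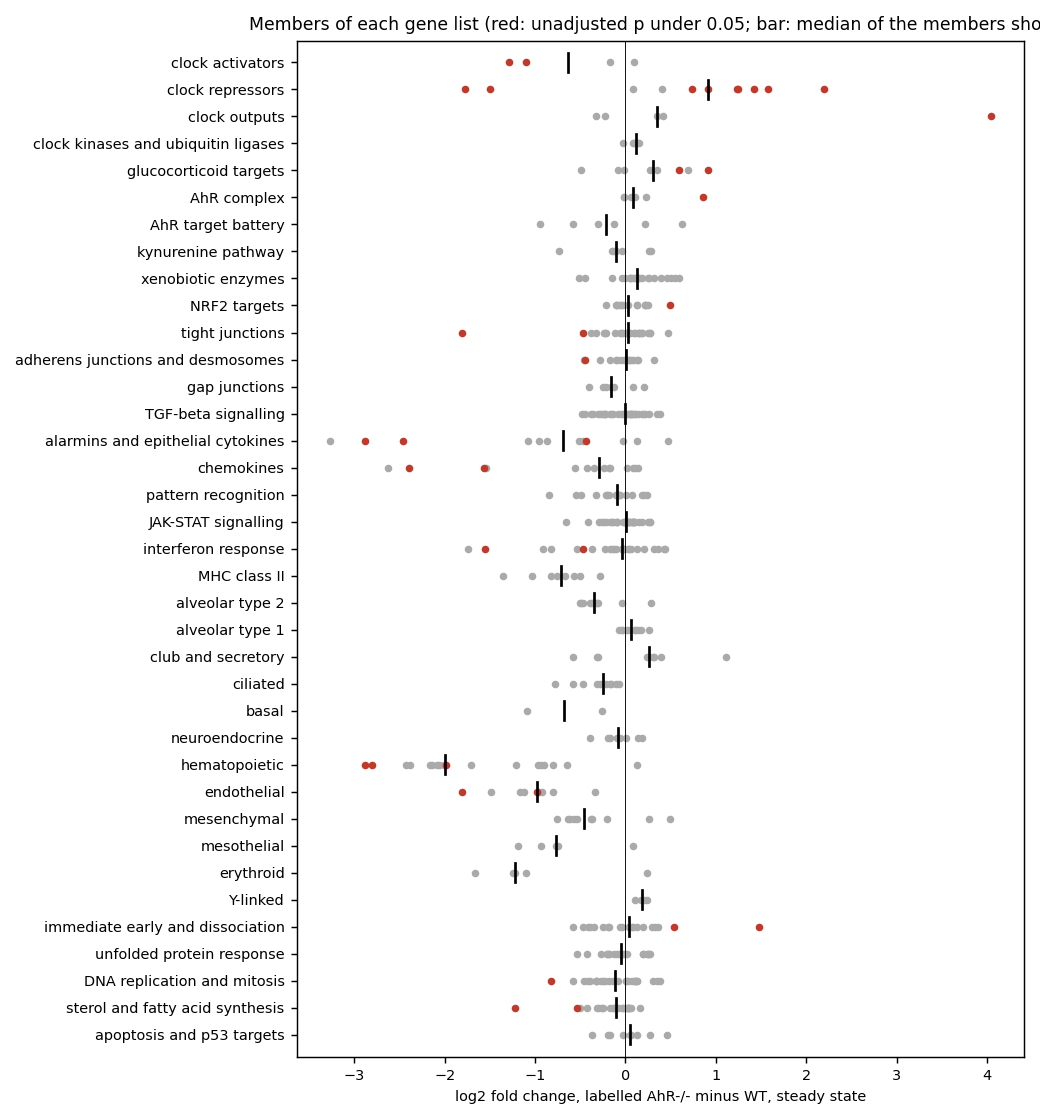
Points are tested members of 37 gene lists by their log2 fold change, labelled AhR-/- minus WT, in red where the unadjusted p is under 0.05, and the bar is the median of the members shown. The clock lists spread over both sides up to 4.05, the hematopoietic list has its median at -1.995, and the junction and signalling lists lie around 0.

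The sort was checked by markers. Epcam was at 131 to 194 CPM in WT and 136 to 164 CPM in the libraries labelled AhR-/-, and Ager, the receptor marking alveolar type 1 cells, at 18668 to 21488 and 19841 to 20713 CPM. Sftpc of alveolar type 2 cells varied more, at 5363, 2982, 3278 and 1666 CPM in WT and 5043, 1374 and 1166 CPM in the libraries labelled AhR-/-. Scgb1a1 of club cells was at 3494, 3706, 3295 and 1360.1 CPM in WT and 4781, 4327 and 1894 CPM in the libraries labelled AhR-/-. Of the marker lists of alveolar type 1, alveolar type 2, club and secretory, ciliated, basal and neuroendocrine cells, 0 members had an unadjusted p under 0.05. The alveolar type 2 median of -0.35 was -0.16 without WT replicate 1 and -1.31 without AhR-/- replicate 1. In such bulk libraries, fewer cells of a type and less RNA per cell cannot be told apart.

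Leukocyte transcripts were counted although CD45+ cells had been excluded by the sort. Most of their markers had a negative log2 fold change, with overlapping groups, and WT replicate 4 was the lowest library for Ptprc and Coro1a. Of 19 hematopoietic markers tested, 3 were lower at an unadjusted p under 0.05, against 1.13% of all genes, and 18 had a negative log2 fold change, as did 7892 of all 15547 genes, with a median of -1.995. Ptprc, which encodes CD45, was at 79.8, 21.3, 7.88 and 2.65 CPM in WT and 11.05, 4.72 and 5.28 CPM in the libraries labelled AhR-/-, and Coro1a, a leukocyte actin-binding protein, at 29.0, 7.35, 1.58 and 0.361 CPM in WT and 2.42, 1.06 and 0.587 CPM in the libraries labelled AhR-/-. The groups overlapped for every marker, and WT replicate 1 was the highest library for both genes. Without it, the median was -0.43, and without AhR-/- replicate 1 it was -2.38. The summed level of the list was 940.3 to 2445 CPM in WT and 670.3 to 1652 CPM in the libraries labelled AhR-/-. Il1b, S100a9, Ccl5 and Gbp2 among the genes above were likewise highest in WT replicate 1, and so were Kdr, Cldn5 and Scd1. In a fit with the mean hematopoietic marker level as a covariate, Il1b had a log2 fold change of -0.74, Ccl5 of -0.82, Gbp2 of -0.99, Cldn5 of -0.61, Kdr of -0.50 and Scd1 of -0.76. Ptprc, Coro1a and S100a9 belong to the list that makes up the covariate, so their values in that fit say nothing of their own. In the same fit Arntl was at -1.30, Cry1 at -1.33, Nr1d1 at 1.96, Bhlhe41 at 1.54 and Acp1 at -2.26. Endothelial markers had a median of -0.98 over 9 genes (-0.42 without WT replicate 1), with 2 lower at an unadjusted p under 0.05, Kdr, the VEGF receptor, and Cldn5, and a summed level of 14.6 to 70.8 CPM in WT and 14.1 to 18.0 CPM in the libraries labelled AhR-/-. The medians of the MHC class II, mesenchymal, mesothelial and erythroid lists were -0.71, -0.46, -0.77 and -1.22, with 0 members at an unadjusted p under 0.05. Without WT replicate 1 these medians were -0.17, -0.38, -0.47 and 1.67, and without AhR-/- replicate 1 they were -1.45, -0.08, -0.70 and -3.10.

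The 24 leading genes were read again in 8 libraries of mice sensitized to house dust mite (HDM) extract given into the nose, 4 of WT and 4 labelled AhR-/-, which had no part in choosing them. This second table was normalized on its own, so only differences within it are read. Ahr was at 12.7, 12.0, 12.0 and 8.04 CPM in WT after HDM and 17.3, 9.52, 20.4 and 17.9 CPM in the libraries labelled AhR-/-, with overlap, a log2 fold change of 0.54 (adjusted p = 0.148, edgeR) and no lower level to match the label. The HDM groups were not alike in other respects. Ddx3y was at 0 CPM in all 4 WT libraries, at 0.0247 and 0.0639 CPM in AhR-/- replicates 1 and 2 and at 53.8 and 52.2 CPM in replicates 3 and 4. Gm10800 took 0.0089% to 72.4% of the protein-coding counts in the libraries labelled AhR-/- and 6.71% to 68.3% in WT, and the median correlation with the other libraries was 0.75 to 0.894 and 0.882 to 0.901. All 24 were tested there, and 12 passed an adjusted p of 0.05, 8 higher and 4 lower, against 29.1% of all 14161 genes tested after HDM (12.8% higher and 16.3% lower). Of the 12, 10 differed in the steady-state direction and 2 in the opposite one. Counting all 24, 19 had the steady-state direction, against 55.6% of the 13567 genes tested in both tables. Acp1 was again lower, with a log2 fold change of -2.14 (adjusted p = 0.00496, edgeR), at 9.97, 5.22, 9.69 and 8.36 CPM in WT and 2.15, 1.41, 1.82 and 2.12 CPM in the libraries labelled AhR-/-. Rab4a, Pik3ip1 and Wdfy1 were higher, with log2 fold changes of 2.68, 0.96 and 1.97, and Glipr2 was lower, with -2.88. Wdfy1 had 7.88, 8.63, 4.38 and 5.46 CPM in WT after HDM against 28.8, 32.7, 15.6 and 25.6 CPM in those labelled AhR-/-, with no library labelled AhR-/- in the WT range.

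Clock genes were divided after HDM. Of the 21, 9 passed, against 29.1% of all genes tested after HDM, and 8 of the 9 had the steady-state direction. Counting all 21, 16 had the steady-state direction, against 55.6% of all genes tested in both tables. Bhlhe41, Nr1d1, Nr1d2, Per2, Per3 and Tef were higher in the libraries labelled AhR-/-, with log2 fold changes of 1.97, 2.34, 1.64, 1.68, 2.25 and 1.94, and Cry1 and Nfil3 lower, with -1.46 and -1.87. Clock was higher, at 1.13, against a steady-state value of -0.18. Arntl was at 11.5, 13.2, 10.1 and 9.70 CPM in WT and 5.69, 8.63, 10.5 and 12.6 CPM in the libraries labelled AhR-/-, where the groups overlapped (log2 fold change -0.25). Npas2 also overlapped, at -0.08. Without AhR-/- replicates 3 and 4, the libraries with over 1 CPM of Ddx3y, 0 of the 24 leading genes, 0 of the 21 clock genes and 0 of all 15713 genes passed in edgeR, 15 leading genes and 3531 of all genes had an unadjusted p under 0.05, and 18 leading genes kept the steady-state direction. The HDM calls were also lost otherwise: 0 of the 24 leading genes passed with the hematopoietic marker level as a covariate, 0 without WT replicate 3, 2 without AhR-/- replicate 3 and 7 without WT replicate 4. After HDM, Ptprc itself was lower in the libraries labelled AhR-/- (log2 fold change -2.45, adjusted p = 0.0346, edgeR), at 275, 187, 427 and 305 CPM in WT and 111, 73.8, 22.2 and 11.1 CPM in those libraries, with no overlap.

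**Figure D5:**
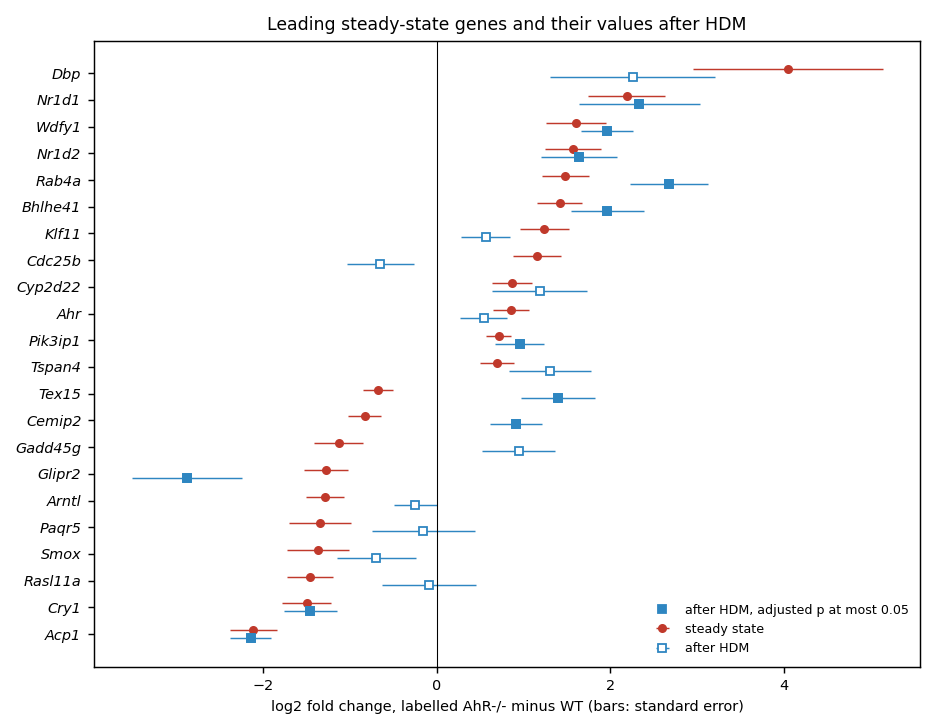
For 22 of the 24 leading genes, circles give the steady-state log2 fold change, labelled AhR-/- minus WT, and squares that after HDM, with bars for the SE, and filled squares have an adjusted p of at most 0.05. Acp1, Cry1, Nr1d1 and Nr1d2 lie near the same value in both states, while Cemip2 and Tex15 change sides with filled squares. Cdc25b also changes sides, with an open square.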

How the data were processed

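RNA of sorted lung ECs was sequenced in 22 libraries, and 10 of steady state entered the fit. The deposited values are counts of reads per gene, made by the authors with GSNAP on mm10 (GRCm38) and featureCounts 2.0.0 after bcl2fastq 2.19.1 (tools per the submitters' processing notes), without normalization. How strand and multi-mapped reads were counted is not given in the sources used here.

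Of 54373 genes, 54147 matched GENCODE M21, and the 21793 protein-coding ones were kept. In R 4.3.3, edgeR 4.0.16 was run with filterByExpr (minimum count 10, minimum total 15), TMM and glmQLFit (robust, the estimation that is not labelled legacy) with 3 genotypes in 1 fit, Benjamini-Hochberg adjustment over all genes tested and a threshold of 0.05. SE was taken as the size of the log2 fold change over the root of the F statistic. CPM use TMM library sizes of protein-coding genes, and log2 values a prior count of 1. Named genes are the members of the clock and AhR lists, the 12 genes of lowest p per direction (leading genes), up to 4 members of lowest p per other list, sorting markers, genes within 10 Mb of Ahr with p under 0.05 and genes with at least 1% of counts. Fcgrt, Snx13, Cbll1, Tmem18 and Agr3 were named after their values were seen. Some genes of these lists are not reported here. Members and lists were chosen with earlier results of these data known. Libraries never agreed within sampling noise (chi-square per gene at least 8.97). Alternatives were other tests (DESeq2 1.42.0, limma 3.58.1), filters, normalizations, covariates and left-out libraries. Leaving out CYP1B1-/- replicate 2, or the HDM libraries with over 1 CPM of Ddx3y, was chosen after seeing the data. Scripts were tested on simulated data.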

Additional observations from a re-analysis of the deposited data

Results flagged for a closer look

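In groups of 4 libraries, a value far from the other 3 was looked for in WT over 90 quantities (total counts, correlation, summed lists and genes with an unadjusted p under 0.05), and 6 were found, where chance gives about 1 in 20. WT replicate 4 had 17707000 counts, against at most 11273312 in the other WT libraries, a summed level of the clock repressors of 354.9 CPM against 283.8 to 289.9, and a summed level of the club and secretory markers of 1611 CPM against 3827 to 4134. WT replicate 2 had 723.9 CPM over the interferon response list against 815.2 to 824.1. WT replicate 1 had 360.6 CPM over the erythroid list against 10.4 to 17.8. Hmox1 in WT replicate 3 was at 5.61 CPM against 6.38 to 6.44.

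Among 51 named genes with an unadjusted p under 0.05, 3 had separate groups in both states with opposite directions. Groups were separate for 4.43% of all genes at steady state and for 24.9% after HDM. The share separate in both states with opposite directions was not counted over all genes. Cemip2 was lower at steady state (-0.83) and higher after HDM, with a log2 fold change of 0.92 (adjusted p = 0.0376, edgeR). Tex15 went from -0.67 to 1.40 (adjusted p = 0.0287, edgeR), and Perp, the desmosome gene, from -0.45 to 0.88 (adjusted p = 0.107, edgeR). The difference between the states was not tested for these genes, and state and sequencing run cannot be told apart.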

How the results depend on the processing

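The count of 0 genes past the threshold became 11 with the likelihood ratio test, 13 with DESeq2, 11 with limma voom and sample weights, 1 with upper-quartile normalization, 4 with the AhR-/- and WT libraries only, 0 to 1 with 1 of these libraries left out and 7 without CYP1B1-/- replicate 2. It stayed at 0 with RLE normalization, without the filter on low counts, with a minimum of 10 counts per library, all listed genes, without dominant genes, with the hematopoietic covariate, and without robust or with legacy estimation. The 261 genes at an unadjusted p under 0.05 became 1460 with limma voom and sample weights, 409 with no filter, 483 with the AhR-/- and WT libraries only, 630 without CYP1B1-/- replicate 2 and 150 to 741 with 1 library left out (150 without AhR-/- replicate 4, 156 without WT replicate 1, 741 without WT replicate 4). The 12 leading genes past the threshold after HDM became 20 with limma voom and sample weights, 6 of 14 tested with at least 10 counts in every library, 0 with the hematopoietic covariate, 0 without the HDM libraries with over 1 CPM of Ddx3y and 0 to 14 with 1 library left out. The causes were not tested. Of the values under the alternatives of the 51 named genes with an unadjusted p under 0.05, 1062 kept their side of the threshold or had no adjusted p, 46 newly passed it and 0 changed sign.

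Same-numbered AhR-/- and WT libraries had correlated deviations of 0.15, 0.03 and 0.18. AhR-/- replicates 1 and 4 correlated best with the WT library of their own number and replicate 3 with WT replicate 1. Not every correlation exceeded 0.1, so the numbers were not taken to pair the libraries. With the replicate block, 0 genes passed, 350 had an unadjusted p under 0.05 and 13 leading genes passed after HDM. Depth limits genes with at most 3 counts in some WT or AhR-/- libraries, among them Dbp, Cyp1a1, Cyp1a2, Gsta1, Ugt1a6a, Ugt1a6b and Cxcl10.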
